A study of Mus musculus with 6 samples.

Results

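Prostaglandins, thromboxane and leukotrienes are lipid mediators made from arachidonic acid, and the genes of the enzymes that make and break them were followed here in mouse peritoneum. Of the 14943 gene symbols in the count table, 10 were chosen by name: the cyclooxygenases Ptgs1 and Ptgs2, the terminal prostanoid synthases Ptges, Ptgis, Hpgds and Tbxas1, the leukotriene genes Alox5, Alox5ap and Ltc4s, and Hpgd, which inactivates prostaglandins. All 10 were found and all 10 had enough reads to be tested. RNA was sequenced from the peritoneum of wild-type male C57BL/6J mice aged 8 weeks, in 3 control libraries and 3 libraries from mice modelling encapsulating peritoneal sclerosis (EPS), in which fibrous tissue binds the bowel loops together. The EPS mice were injected into the abdomen each day with 100 mL/kg of a dialysis solution (4.25%) plus SHS, as the labels call it, at 0.3 mL. Each week they also received 4 mg/kg of lipopolysaccharide, the endotoxin of gram-negative bacteria. Controls received saline in the same volume, and tissue was taken in week 3. The EPS mice received all agents together, so what each agent does cannot be told apart, and the labels do not say whether each library comes from 1 mouse.

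Arachidonic acid is cut from membrane lipids by phospholipases and enters either of 2 main routes. Cyclooxygenases turn it into prostaglandin H2, which terminal synthases convert to prostaglandin E2 (Ptges), prostacyclin (Ptgis), prostaglandin D2 (Hpgds) or thromboxane A2 (Tbxas1). 5-Lipoxygenase (Alox5), with its activating protein (Alox5ap), makes leukotriene A4, which becomes the neutrophil attractant leukotriene B4 or, through Ltc4s, the cysteinyl leukotrienes. In the peritoneum, mesothelial cells, macrophages, mast cells and vessels are known sources, with prostacyclin typical of vessel walls and mesothelium and thromboxane of platelets and macrophages.

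Library totals lay between 15419232 and 17684229 counts. Values are CPM, read counts scaled to a common library size with TMM factors that correct for composition, and ± gives the SD within a group (n = 3) unless a standard error is named. Libraries in each group are the labelled replicates, so p-values measure only the spread between them. A pair of EPS libraries stood apart. In EPS 1, 10 exocrine pancreas genes summed to 143460 CPM, against 162 to 3646 CPM in the other 5 libraries. Controls were uneven as well, with pancreas sums of 3646, 3409 and 324 CPM in controls 1 to 3. In EPS 2, 12 genes typical of the epididymis and vas deferens, a list drawn up after their values were seen, summed to 1334 CPM, against 0.143 to 2.22 CPM in the other 5. Among them were Crisp1, a secreted protein of the epididymis, at 690.1 CPM and Akr1b7, an aldo-keto reductase abundant in the vas deferens, at 211 CPM, while no other library exceeded 0.346 and 0.139 CPM. Mesothelial markers, which define the labelled tissue, were detected in every library, at a sum over 9 genes of 132 to 210 CPM in controls and 43.3 to 291 CPM in EPS. Single genes weighed on the EPS sums. Krt18 stood at 105.9 CPM in EPS 1 (2.12 to 5.02 CPM in controls) and Krt19 at 81.0 CPM in EPS 2 (12.9 to 20.1 CPM in controls). Upk3b, the highest of the 9 in controls (65.8 to 95.5 CPM), stood at 51.6, 42.7 and 11.3 CPM in EPS 1 to 3. It was the only one of the 9 with every EPS library below every control, and 0 of the 9 passed edgeR's test at an adjusted p under 0.05.

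Of the 10 members, 4 rose in EPS, 2 fell and 4 were not called at an adjusted p under 0.05 by edgeR's quasi-likelihood test. The genes that rose were Alox5ap (4.73-fold), Hpgds (4.16-fold), Tbxas1 (3.31-fold) and, less firmly, Alox5 (1.54-fold), and those that fell were Ptges (3.44-fold lower) and Ltc4s (3.03-fold lower). Neither cyclooxygenase gene was called. Ptgs2, the inducible cyclooxygenase, was high in EPS 2 alone and stood near the control level in the other 2 EPS libraries. Over all 13980 genes tested, 59.6% were called, 29.2% higher and 30.4% lower, so 6 of 10 members called is close to the background. In 4 members every EPS library lay above every control, as in 33.1% of all tested genes, and in 2 every EPS library lay below, as in 35.4%. The members' median log2 fold change was 0.51, against -0.02 over all tested genes.

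**Figure D1:**
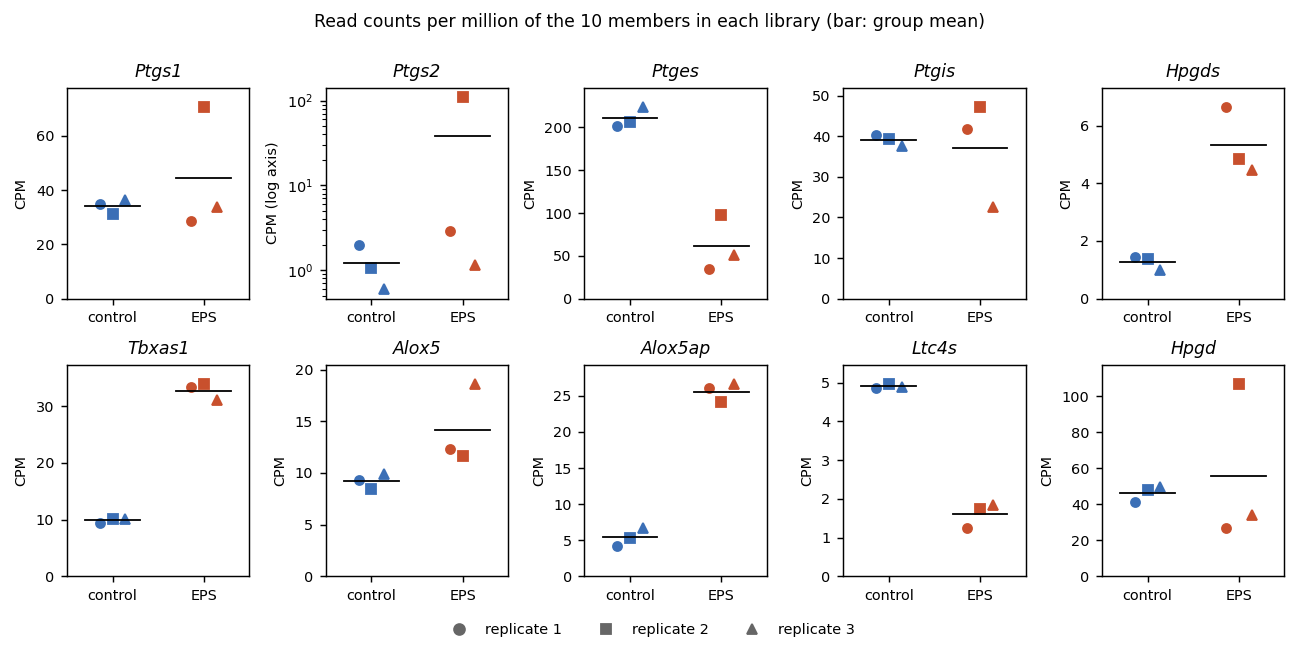
Each panel plots the CPM of a member in the 3 control and 3 EPS libraries (symbols mark the replicate number, bars the group mean), with a log axis for Ptgs2 only. Hpgds, Tbxas1, Alox5 and Alox5ap lie above all controls in every EPS library and Ptges and Ltc4s below, while for Ptgs1, Ptgs2, Ptgis and Hpgd the highest point is EPS 2.

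Promoter sequence is shown for the 3 rising genes that have an entry in the RefSeq promoter table (GRCm38.p6, the assembly of mm10), for the falling gene Ptges, and for Ptgs2, whose promoter is a classical example of an inducible one. The 150 bases before the RefSeq start are given on the strand of the gene. For Hpgds, Tbxas1 and Ptges the whole printed stretch lies inside the longer gene body that GENCODE annotates, and for Ltc4s, which is not printed, the RefSeq start also lies inside it. Capitals mark matches, on either strand, to any of 7 motifs searched: the TATA box as TATAAA, the E-box as CACGTG, the core of a cyclic AMP response element as TGACG, a core read by ETS family factors such as PU.1 as GAGGAA, the GC box as GGGCGG, the CCAAT box by its name, and the core of the C/EBP motif as TTNNGNAA.
Hpgds (chr6:65144731-65144880, minus strand): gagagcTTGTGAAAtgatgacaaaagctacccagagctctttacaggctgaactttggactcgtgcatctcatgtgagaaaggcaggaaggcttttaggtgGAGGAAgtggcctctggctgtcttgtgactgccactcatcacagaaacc
Tbxas1 (chr6:38918836-38918985, plus strand): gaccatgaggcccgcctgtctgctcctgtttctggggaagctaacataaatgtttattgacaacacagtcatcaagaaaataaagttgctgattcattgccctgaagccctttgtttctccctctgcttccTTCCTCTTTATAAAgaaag
Alox5 (chr6:116461179-116461328, minus strand): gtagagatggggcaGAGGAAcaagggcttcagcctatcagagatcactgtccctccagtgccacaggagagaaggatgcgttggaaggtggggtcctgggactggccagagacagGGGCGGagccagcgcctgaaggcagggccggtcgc
Ptges (chr2:30903298-30903447, minus strand): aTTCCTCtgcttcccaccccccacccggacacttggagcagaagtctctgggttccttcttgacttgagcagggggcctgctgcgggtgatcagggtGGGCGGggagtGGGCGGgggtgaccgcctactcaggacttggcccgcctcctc
Ptgs2 (chr1:150099881-150100030, plus strand): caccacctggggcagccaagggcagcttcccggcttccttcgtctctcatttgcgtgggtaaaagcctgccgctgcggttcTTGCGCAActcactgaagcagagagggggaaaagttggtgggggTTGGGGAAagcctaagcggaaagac

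The table had an entry for 8 of the 10 members, and motifs were counted in its full window of 300 bases, of which 50 follow the start. GAGGAA was found in 8 of the 8, against 28.3% of all 32851 promoters in the table. In Hpgds it begins 49 bases before the start and in Tbxas1, on the opposite strand and next to a pair of overlapping TATAAA matches, 19 bases before. It was as present in members that fell or were not called as in those that rose. TTNNGNAA was found in 4 of the 8, among them Ptgs2 and Hpgds, against 40.7% of all promoters. CACGTG and TGACG were each found in Ptgs2 alone among the 8, against 7.15% and 20.8% of all promoters. They overlap each other and start at bases 17 and 14, with the RefSeq start as the first base. Where transcription starts in these samples was not measured. GGGCGG was found in 4 (35.7% of all), TATAAA in 2 (13.6%) and CCAAT in 0 (37.4%). A match describes the letters only, and no binding was measured.

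Ptgs1 encodes the cyclooxygenase that most tissues make constantly (chromosome 2, 36230426 to 36252272, plus strand). It stood at 34.8, 31.1 and 36.2 CPM in controls 1 to 3 and at 28.6, 70.7 and 33.8 CPM in EPS 1 to 3. EPS 2 was the only EPS library above the controls, and the groups overlapped. The log2 fold change was 0.39 ± 0.33 (SE, adjusted p = 0.346), and without EPS 2 it was -0.12 ± 0.14 (adjusted p = 0.486).

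Ptgs2 encodes the cyclooxygenase induced by endotoxin and cytokines (chromosome 1, 150100031 to 150108227, plus strand). Controls stood at 2.00, 1.06 and 0.595 CPM, and EPS libraries at 2.91, 110.1 and 1.14 CPM. EPS 2 was 55.1-fold above the highest control and held 97.3% of the 2409 Ptgs2 reads of the EPS group, whereas EPS 3 lay within the control range and EPS 1 was above it. The log2 fold change of 4.98 had a standard error of 2.24 and was not called (adjusted p = 0.123). Without EPS 2 it was 0.72 ± 0.64 (adjusted p = 0.362), and DESeq2 gave no p for the gene. The epididymis and vas deferens genes were high in that same library. Smooth muscle and pericyte markers summed to 3486 CPM there, against 1388 and 1207 CPM in EPS 1 and EPS 3 and 4870 to 5317 CPM in controls. The part of either list in the Ptgs2 level was not tested.

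**Figure D2:**
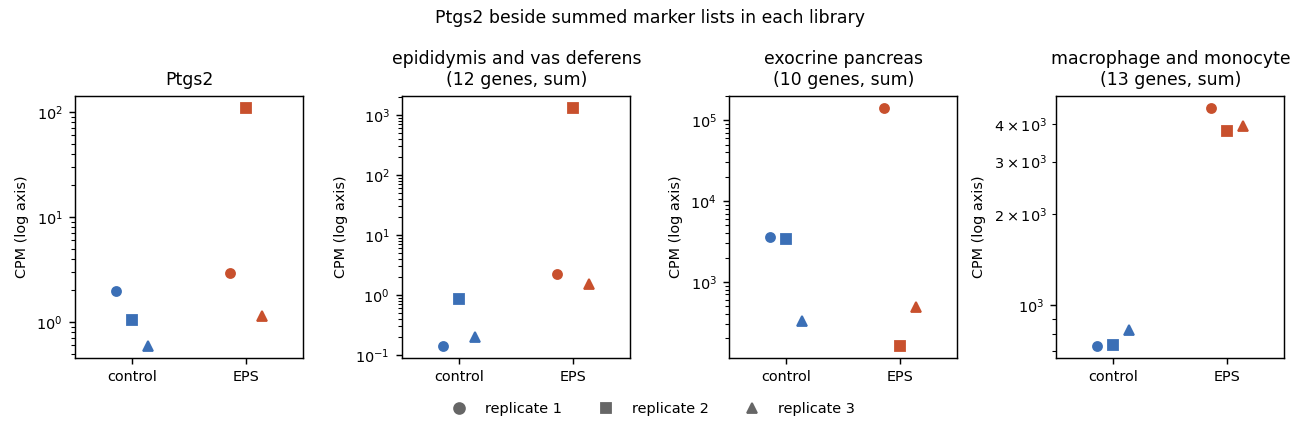
CPM of Ptgs2 and the summed CPM of 3 marker lists in each library, all on log axes, with symbols for the replicate number. EPS 2 carries both the 110.1 CPM of Ptgs2 and the 1334 CPM of the epididymis and vas deferens list, EPS 1 the 143460 CPM of the pancreas list, and all 3 EPS libraries exceed the controls for macrophage and monocyte genes.

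Ptges, the microsomal prostaglandin E synthase that is usually coupled to Ptgs2 (chromosome 2, 30889471 to 30929863, minus strand), fell. Controls stood at 202, 206 and 224 CPM and EPS libraries at 34.7, 97.8 and 51.2 CPM. Every EPS library was below every control, and EPS 2 was the highest of the 3. The fall was 1.78 ± 0.36 on the log2 scale (SE, adjusted p = 0.00528), and leaving out EPS 2 moved the log2 fold change to -2.29 ± 0.18 (adjusted p = 6.24e-05). Fat cell markers fell over the same comparison, 8 of 8 called lower and their sum going from 23606 to 24228 CPM in controls to 2198 to 3744 CPM in EPS, and their part in the fall of Ptges was not tested. In bulk tissue, fewer cells of a type and less RNA per cell cannot be told apart.

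Ptgis, the prostacyclin synthase (chromosome 2, 167191805 to 167240604, minus strand), did not pass the test. It stood at 40.3, 39.3 and 37.5 CPM in controls and at 41.7, 47.3 and 22.5 CPM in EPS. EPS 1 and EPS 2 were above the controls and EPS 3 below, and the log2 fold change was -0.07 ± 0.25 (adjusted p = 0.823). The sign of this value turned with library totals as the only scaling (0.34) and without EPS 3 (0.19).

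Hpgds, the prostaglandin D synthase of blood-derived cells such as mast cells and macrophages (chromosome 6, 65117293 to 65144908, minus strand), rose from a low level. Controls stood at 1.43, 1.39 and 0.992 CPM and EPS libraries at 6.65, 4.84 and 4.46 CPM. All EPS libraries were above all controls, with a log2 fold change of 2.06 ± 0.31 (adjusted p = 0.000705). The control values rest on 15 to 21 reads a library.

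Tbxas1, the thromboxane synthase (chromosome 6, 38875404 to 39084585, plus strand), rose evenly. It stood at 9.36, 10.1 and 10.2 CPM in controls and at 33.4, 33.9 and 31.1 CPM in EPS. The groups were far apart and each varied little, and the log2 fold change was 1.73 ± 0.12 (adjusted p = 1.39e-05). Macrophage and monocyte markers rose in the same libraries, 11 of 13 called higher and their sum going from 731 to 824 CPM in controls to 3778 to 4537 CPM in EPS. Of 4 platelet markers tested, 1 was called higher, and their sum went from 21.1 to 23.6 CPM in controls to 37.3 to 77.2 CPM in EPS, highest in EPS 3, where Tbxas1 was lowest of the 3. The part of these cells in the levels of Tbxas1 and Hpgds was not tested.

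Alox5ap, the membrane protein that hands arachidonic acid to 5-lipoxygenase (chromosome 5, 149264767 to 149288153, plus strand), rose most of the called members. Controls stood at 4.21, 5.29 and 6.68 CPM and EPS libraries at 26.1, 24.1 and 26.6 CPM. The lowest EPS library was 24.1 CPM against 6.68 CPM in the highest control, and the log2 fold change was 2.24 ± 0.19 (adjusted p = 3.07e-05). Over the same comparison 11 of 13 macrophage and monocyte markers and all 12 neutrophil markers were called higher. The part of these cells in the Alox5ap level was not tested. The labels name no step that marks strand, and 13.3% of the gene's exon bases are shared with the antisense gene Gm19719, so reads of the pair cannot be told apart there.

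Alox5, 5-lipoxygenase itself (chromosome 6, 116410077 to 116461178, minus strand), rose less. It stood at 9.28, 8.46 and 9.85 CPM in controls and at 12.3, 11.6 and 18.6 CPM in EPS. The groups did not overlap, and EPS 3 was well above the other EPS libraries. The log2 fold change was 0.62 ± 0.21 (adjusted p = 0.0346). Without EPS 3 it was 0.38 and no longer called (adjusted p = 0.0845), nor was it called without control 1 (0.0928), control 2 (0.116) or control 3 (0.0692), with a range of adjusted p over the 14 alternatives from 0.00583 to 0.116. Neutrophil markers, all 12 of which were called higher, summed to 4.56 to 5.64 CPM in controls, and Ly6g had no read in any control. In EPS 1 to 3 their sums were 685, 911 and 2167 CPM, highest in EPS 3. Among them, Csf3r (159, 101 and 149 CPM) and Fpr1 (47.2, 13.2 and 17.0 CPM) were highest in EPS 1. EPS 3 also had the highest sums of the eosinophil, mast cell, platelet, dendritic cell, T and NK cell, and B and plasma cell lists. Single markers differed. The mast cell proteases Cpa3, Cma1, Mcpt4 and Tpsb2 were highest in EPS 2, and Hdc (16.4, 17.5 and 28.1 CPM) and Kit in EPS 3. The dendritic cell sums of EPS 2 and EPS 3 were close (138 and 140 CPM), and the B cell genes Ms4a1 and Cd22 were highest in EPS 1. The macrophage and monocyte list was highest in EPS 1 (4537 CPM). The part of these cells in the Alox5 level was not tested.

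Ltc4s, which joins leukotriene A4 to glutathione (chromosome 11, 50236461 to 50238616, minus strand), fell while its upstream partners rose. Controls stood at 4.86, 4.96 and 4.89 CPM and EPS libraries at 1.25, 1.74 and 1.83 CPM. The controls lay almost on top of each other and all EPS libraries lay below them. The fall was 1.60 ± 0.28 on the log2 scale (SE, adjusted p = 0.00145). Several cell type marker lists changed over the same comparison. Among cells known to express Ltc4s, 5 of 6 mast cell markers were called higher (sum 40.7 to 50.4 CPM in controls, 75.4 to 87.5 CPM in EPS), as were 4 of 5 eosinophil markers (0.357 to 1.92 CPM against 10.5 to 30.4 CPM, with no control read of Epx). Called lower were 7 of 7 blood endothelial markers (2035 to 2100 CPM in controls, 846 to 1073 CPM in EPS), 4 of 6 smooth muscle and pericyte markers (4870 to 5317 CPM against 1207 to 3486 CPM) and the fat cell markers given above. The part of these cell types in the fall of Ltc4s was not tested, nor that of the endothelial and smooth muscle cells in the fall of Ptges. Reads here number 18 to 37 in each EPS library, and 26.4% of the exon bases of Ltc4s are shared with the antisense gene Gm26542.

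Hpgd, the 15-hydroxyprostaglandin dehydrogenase that starts the breakdown of prostaglandin E2 (chromosome 8, 56294585 to 56321043, plus strand), depended on EPS 2. Controls stood at 41.6, 47.8 and 49.8 CPM and EPS libraries at 26.6, 106.8 and 34.1 CPM. EPS 2 was 2.14-fold above the highest control, while EPS 1 and EPS 3 were below the lowest. With all libraries the log2 fold change was 0.27 ± 0.55 (adjusted p = 0.696), and without EPS 2 it turned to -0.61 ± 0.15 and was called (adjusted p = 0.0116). Slco2a1, the transporter that carries prostaglandins into cells for breakdown and is named here after its values were seen, stood at 98.5, 105.1 and 77.4 CPM in controls and at 61.0, 199.7 and 66.2 CPM in EPS. Its log2 fold change was 0.22 ± 0.50 (adjusted p = 0.725), and without EPS 2 it was -0.56 ± 0.15 (adjusted p = 0.0159). The epididymis and vas deferens genes were high in EPS 2 here too, and smooth muscle and pericyte markers were highest there among the EPS libraries. The part of either list in these levels was not tested.

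Without EPS 2, then, 4 members were called higher and 3 lower, with 57.5% of all tested genes called. Without EPS 1 the counts were 4 and 2, with 59.9% of all tested genes called.

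**Figure D3:**
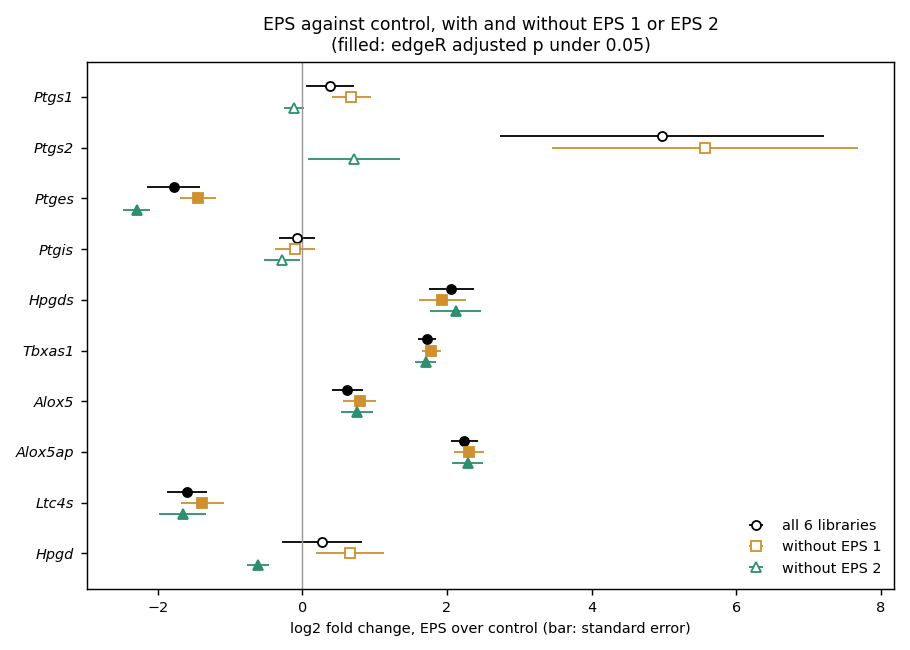
Log2 fold change of EPS over control for each member with its standard error, from all 6 libraries, without EPS 1 and without EPS 2 (filled symbols have an adjusted p under 0.05). Ptgs2 moves from 4.98 to 0.72 and Hpgd from 0.27 to -0.61 when EPS 2 is left out, while Hpgds, Tbxas1 and Alox5ap stay close to their values from all libraries.

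Relative to transcript length, the members differed widely in level. On the scale of CPM per kilobase of annotated exon, Ptges was the highest of the 10 in controls at 53.6 ± 3.02, followed by Hpgd at 27.6 ± 2.55, Ptgis at 15.2 ± 0.549 and Ptgs1 at 8.76 ± 0.672. Ltc4s (4.83 ± 0.0495) and Alox5ap (3.80 ± 0.871) came next, then Alox5 (2.24 ± 0.171) and Tbxas1 (1.09 ± 0.0505). Ptgs2 (0.266 ± 0.156) and Hpgds (0.198 ± 0.0375) were lowest, and of the pairs next to each other in this order only they overlapped. In EPS the level of Alox5ap, at 18.02 ± 0.925 per kilobase, was second to that of Hpgd (33.2 ± 26.3) by group means. Its range overlapped those of Hpgd, Ptges, Ptgis, Ptgs1 and Ptgs2, and in EPS 2 all of these stood above it. Ltc4s, number 5 of the 10 in controls, was number 9 in EPS by group means, at 1.58 ± 0.310. That place depends on EPS 2, where Ptgs2 stood at 24.0 per kilobase. In EPS 1 and EPS 3 Ptgs2 (0.635 and 0.249) was below Ltc4s (1.23 and 1.81). These levels rest on the union of all annotated exons of a gene, which can be longer than the transcript present.

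Ratios between members within a library do not depend on how libraries are scaled. Tbxas1 against Ptgis, thromboxane against prostacyclin synthase, had a log2 ratio of read counts of -2.10, -1.96 and -1.88 in controls and of -0.32, -0.48 and 0.47 in EPS. The difference of 1.87 separated the groups fully, with an exact two-sided permutation p of 0.1, the smallest that 3 against 3 allows (0.133 after Benjamini-Hochberg adjustment over 4 ratios). Alox5ap against Alox5 went from -1.13, -0.67 and -0.56 to 1.08, 1.05 and 0.52, a difference of 1.67 with the same exact p of 0.1. In controls Alox5 had more reads than Alox5ap, and in every EPS library it had fewer. Read counts are not corrected for gene length. Per kilobase of annotated exon, Alox5ap was above Alox5 in every control already (2.97, 3.72 and 4.70 against 2.26, 2.06 and 2.40). Ptges against Hpgd, synthesis against breakdown of prostaglandin E2, fell from 2.28, 2.11 and 2.17 to 0.38, -0.13 and 0.59, a difference of -1.90 (exact permutation p = 0.1) that was -1.70 without EPS 2. Ptgs2 against Ptgs1 went from -4.10, -4.84 and -5.85 to -3.28, 0.64 and -4.86, and the groups overlapped (difference 2.43, exact permutation p = 0.3). Without EPS 2 that difference was 0.86. Each pair that separated the groups holds a member whose CPM did so alone (Tbxas1, Alox5ap and Alox5, Ptges). Of all tested genes, 33.1% lay fully above the controls and 35.4% fully below. The share of other gene pairs that separate the groups was not counted.

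**Figure D4:**
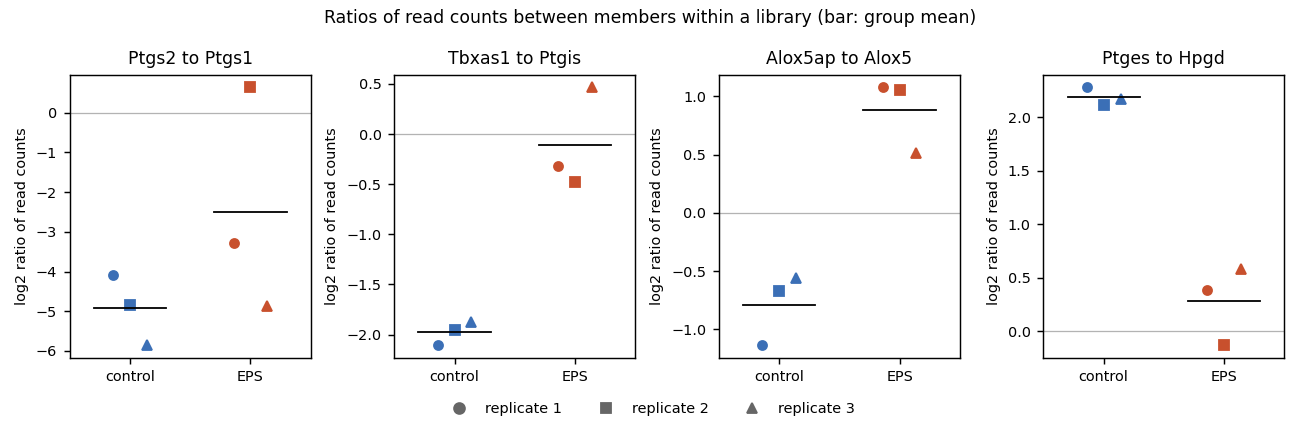
Log2 ratio of read counts of 4 pairs of members in each library, with bars at the group means and symbols for the replicate number. Control and EPS libraries do not overlap for Tbxas1 to Ptgis, Alox5ap to Alox5 and Ptges to Hpgd, and they overlap for Ptgs2 to Ptgs1, where EPS 2 alone lies above 0.

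The wider pathway, 6 lists of 59 genes in the table, moved in both directions. Of the 54 tested, 16 were called higher and 22 lower, which is 70.4% called against 59.6% of all tested genes, and their median log2 fold change was 0.01.

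Genes that release arachidonic acid or handle related lipids split by enzyme. Of 15 tested, 6 rose and 5 fell, with a median log2 fold change of 0.15. Pla2g4a, the cytosolic phospholipase A2 that supplies both routes, rose from 5.83 ± 0.189 to 21.2 ± 6.33 CPM (log2 fold change 1.86 ± 0.23, adjusted p = 0.000220). Pla2g2d, a secreted phospholipase of dendritic cells and macrophages, rose from 3.73 ± 0.601 to 104.8 ± 11.9 CPM, and Pla2g7, which degrades platelet-activating factor, from 10.5 ± 1.78 to 81.2 ± 31.0 CPM. Those that fell included Mgll, the monoacylglycerol lipase of fat and other tissues, from 1533 ± 89.6 to 147 ± 43.0 CPM, and Plaat3, the phospholipase abundant in fat cells, from 416 ± 22.9 to 58.1 ± 10.1 CPM. The fall of fat cell markers given above ran alongside, and its part was not tested.

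Of the 8 other prostanoid synthase genes tested, 6 fell and 2 were not called (median log2 fold change -0.77). Ptges2, the second membrane-associated prostaglandin E synthase, fell from 39.5 ± 4.14 to 14.1 ± 0.838 CPM, and Gstm2, a glutathione transferase, from 187 ± 2.32 to 65.5 ± 12.5 CPM. Akr1b3, an aldose reductase that can make prostaglandin F2 alpha, went from 127 ± 8.12 to 80.6 ± 15.6 CPM (adjusted p = 0.00564), and with library totals as the only scaling it was not called (adjusted p = 0.486).

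Among 9 other lipoxygenase and leukotriene enzymes tested, 2 rose and 4 fell (median -0.34). Alox15, the 12/15-lipoxygenase of resident peritoneal macrophages and eosinophils, rose from 1.19 ± 0.715 to 9.07 ± 1.82 CPM. Lta4h, which makes leukotriene B4, rose from 54.9 ± 2.95 to 82.1 ± 18.5 CPM (log2 fold change 0.58 ± 0.16, adjusted p = 0.0133), and was not called without control 2 (0.0533) or control 3 (0.0502). Mgst2 and Mgst3, relatives of Ltc4s, fell as Ltc4s did, from 30.7 ± 2.90 to 11.2 ± 3.13 CPM and from 68.7 ± 2.38 to 9.06 ± 0.159 CPM. Dpep1, a dipeptidase that converts leukotriene D4 to E4, fell from 110.6 ± 7.69 to 41.9 ± 11.8 CPM.

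Of 6 prostanoid receptor genes tested, 3 rose and 2 fell (median 0.66). Ptger4, the EP4 receptor of prostaglandin E2, rose from 15.9 ± 2.43 to 44.6 ± 3.43 CPM (log2 fold change 1.49 ± 0.15, adjusted p = 6.30e-05), while Ptger3, the EP3 receptor found on fat cells, fell from 265 ± 26.1 to 76.1 ± 43.4 CPM. The fall of Ptger3 was not called without EPS 3 (adjusted p = 0.0564, against 0.00921 with all libraries). Ptgfr, the receptor of prostaglandin F2 alpha, fell from 3.51 ± 0.355 to 0.649 ± 0.0413 CPM. The thromboxane receptor gene Tbxa2r rose from 5.91 ± 1.34 to 11.9 ± 3.66 CPM, a call lost without control 2 (0.0531) or control 3 (0.0530). The prostacyclin receptor gene Ptgir rose from 16.0 ± 1.82 to 22.7 ± 1.18 CPM, a call lost without control 3 (0.0557).

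Of 6 leukotriene and lipoxin receptor genes tested, 3 rose and 2 fell (median 0.82). Fpr2, a formyl peptide receptor that also binds lipoxin A4, rose from 0.115 ± 0.108 to 10.4 ± 5.82 CPM (log2 fold change 6.43 ± 0.72, or 7.15 without control 1). Ltb4r1, the high-affinity leukotriene B4 receptor, went from 2.09 ± 0.541 to 5.99 ± 3.53 CPM (log2 fold change 1.52 ± 0.44, adjusted p = 0.0182). Its call was lost without control 1 (0.0711) or control 2 (0.0678), and without EPS 3 its log2 fold change was 0.91. Cmklr1, a receptor of chemerin, fell from 211 ± 15.7 to 113 ± 10.5 CPM, a call lost with library totals as the only scaling (0.0846).

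Of 10 transport and inactivation genes tested, 2 rose and 3 fell (median 0.12). Cyp4f18, which inactivates leukotriene B4 in mouse neutrophils, rose from 2.75 ± 0.676 to 27.9 ± 4.07 CPM (log2 fold change 3.34 ± 0.22, adjusted p = 9.53e-06). The neutrophil markers and other immune cell lists given above rose over the same comparison, and their part in the Cyp4f18 level was not tested. Ptgr2, which reduces 15-keto-prostaglandin E2, the product of Hpgd, fell from 57.3 ± 2.79 to 23.0 ± 1.85 CPM.

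**Figure D5:**
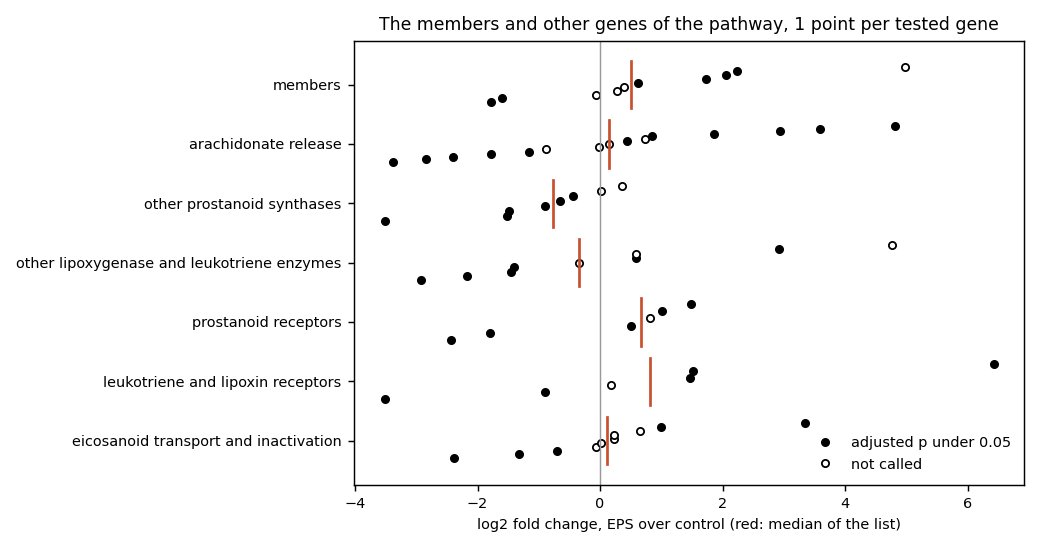
Log2 fold change of EPS over control for every tested gene of the 10 members and of the 6 other pathway lists, with filled points at an adjusted p under 0.05 and a red bar at the median of each list. The medians lie between -0.77 for other prostanoid synthases and 0.82 for leukotriene and lipoxin receptors, and called genes lie on either side of 0 in every list but the other prostanoid synthases.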

How the data were processed

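The authors deposited 1 table of raw read counts per gene symbol, with no normalization, as its header and whole-number values show. The build was mm10, per the submitters' processing notes; aligner, counter and annotation: not given in the sources used here. Members and gene lists were chosen with earlier results of these data known. Genes were kept by filterByExpr, scaled by TMM and tested with edgeR 4.0.16 (R 4.3.3; quasi-likelihood F-test, robust, no covariate, Benjamini-Hochberg over 13980 genes), and called at an adjusted p under 0.05. A standard error is the log2 fold change divided by the square root of F. From each pathway list, up to 5 called genes of lowest adjusted p in each direction could be named. Ratios used counts plus 0.5 and an exact permutation test. Coordinates and exon lengths are from GENCODE vM21 (GRCm38). The tests were first tested on simulated data in which few genes changed and no library stood apart. That check therefore does not bear on libraries such as EPS 1 and EPS 2. Alternatives were other scalings, no filter, DESeq2 1.42.0, limma-voom (limma 3.58.1), a replicate block, leaving out each library, and averaging controls 1 and 2, the most alike pair (chi-square per gene 4.41, against 15.9 and 16.4 with control 3). The values of 1 gene of the pathway lists are not reported here, though it stands in its list's counts and median.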

Additional observations from a re-analysis of the deposited data

How the results depend on the processing

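Over the 14 alternatives of the fitted tests, the counts of called members stayed between 3 and 4 higher and between 2 and 3 lower, and those of other pathway genes between 11 and 22 higher and between 17 and 23 lower. The log2 fold changes of members not called that changed sign were Ptgs1 without EPS 2 (-0.12), Ptgis with library totals (0.34) and without EPS 3 (0.19), Hpgd without EPS 2 (-0.61) and, outside the members, Slco2a1 without EPS 2 (-0.56); the cause was not tested. With each library left out in turn, these values ranged from -0.12 to 0.68 for Ptgs1, from -0.28 to 0.19 for Ptgis, from -0.61 to 0.66 for Hpgd and from -0.56 to 0.56 for Slco2a1. Scaling by library totals alone shifted the median log2 fold change by 0.42 and the share of higher genes among all calls from 49.1% to 72.2%, and the calls of Hpgds, Tbxas1, Alox5ap, Alox5, Ptges and Ltc4s passed with it. With the replicate number as a block, Hpgd stood at -0.0093 in place of 0.27, not called in either, and no member's call changed. The deviations of same-numbered libraries from their group means had correlations of 0.20, -0.10 and 0.24. With so few libraries in a group, these values cannot decide whether the numbers pair the samples. Of all values of single genes under the alternatives, 617 kept direction and call, 34 kept the direction but lost the call, and 6 changed sign. Low counts limit Hpgds in controls and Ltc4s in EPS.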
